A study of Zea mays with 9 samples.

Results

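The genes described here were listed at a higher level in maize root apexes supplied with ammonium and at a lower level in those supplied with nitrate than in apexes kept without nitrogen (-N). They were chosen from the values themselves. A gene entered with more than 0 RPKM (reads scaled to transcript length and to library size) in each condition and at least 1 RPKM in the highest. Its log2 ratio to -N then had to lie above 0.58 after ammonium and below -0.58 after nitrate. Of 45260 identifiers in the table, 43484 were Zm00001d gene models, and 21281 of these passed the minimum. Both thresholds were met by 200 genes (0.94%), and 196 of these are described. The 4 that were left out by name are genes described as ammonium transporter1 (Zm00001d025831), a multidrug and toxic compound extrusion protein (Zm00001d035115), a peroxidase (Zm00001d010218) and the urea-proton symporter DUR3 (Zm00001d037242).

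All libraries came from apexes of primary roots of the maize inbred line B73, from seedlings germinated in the dark and then held in a nitrogen-free solution. The seedlings were next kept for 24 h in solution with 1 mM ammonium (+NH4+, as NH4Cl), with 1 mM nitrate (+NO3-, as KNO3) or with no nitrogen (-N). Each of the 3 conditions had 3 replicates of pooled seedlings, 9 libraries in all. One inbred line, one dose and one time were examined, and the salts differ in their counter-ions as well as in the nitrogen form. The table holds 1 RPKM value of the authors per gene and condition, with no value per replicate and no read count. No difference could therefore be set here against the spread between replicates, no p-value was computed, and the table gives no depth. The study tested each condition against -N over its replicates with Cuffdiff. Those tests are not used here, and the genes below were chosen by ratio alone, whether or not they passed them. The values summed to 929408 RPKM after ammonium, 915808 after nitrate and 885720 in -N. Some genes known from dividing cells or the root cap are in lists that the study chose by their response in these same libraries. That they differed between conditions follows from that choice and is no independent check of the tissue. The proliferating cell nuclear antigen gene Zm00001d018415 had 39.1 RPKM after ammonium, 72.96 after nitrate and 78.3 in -N, and Zm00001d012166 (Faciata 1-like protein) had 3.52 RPKM after ammonium, 6.89 after nitrate and 8.13 in -N. Zm00001d016119 is described as SOMBRERO, known from the root cap of Arabidopsis, and had 2.84 RPKM after ammonium, 4.77 after nitrate and 1.17 in -N, and 4 tubulin genes were past the 0.58 threshold downward with both ions. The part of tissue makeup in the values below was not tested. In whole apexes, more cells of a type and more RNA per cell cannot be told apart.

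Roots take up nitrate through nitrate transporters and reduce it to nitrite and then to ammonium before nitrogen enters amino acids, and nitrate itself acts as a signal for gene expression. Ammonium enters through ammonium transporters and is assimilated directly by glutamine synthetase, and as a sole nitrogen source it can acidify the medium and disturb growth. Roots short of nitrogen raise many uptake and remobilization functions. The genes described here were listed away from their -N level in opposite directions with ammonium and with nitrate. Both comparisons share the same -N values.

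As the rule itself set both directions, the sizes below describe the genes and test nothing. Across all 21281 genes, 4077 (19.2%) were past the threshold upward after ammonium and 1142 (5.37%) downward after nitrate. The 196 genes made up 17.2% of those 1142, with the 4 left-out genes not counted. Over all levels, a rise past the threshold after ammonium was thus no more common among genes lower after nitrate than among all genes (19.2%). By level in -N, members were 68 of the 82 genes lower after nitrate under 1 RPKM, where 66.7% of tested genes rose. They were 94 of 674 at 1 to 10 RPKM (21.7%), 29 of 327 at 10 to 100 (12.1%) and 5 of 59 from 100 (7.68%). Under 1 RPKM, the minimum forced genes lower after nitrate above -N after ammonium. The ratios also share -N, so no link is read from these shares. The median log2 ratio of the 196 genes was 1.23 after ammonium (quartiles 0.84 and 1.95, highest 5.21) and -0.94 after nitrate (quartiles -1.46 and -0.73, lowest -5.02). The medians over all genes were 0.02 after ammonium and 0.04 after nitrate. Set directly against each other, ammonium and nitrate differed by a median log2 ratio of 2.46 in the 196 genes, against -0.02 over all genes. A log2 ratio of ammonium to nitrate above 2 was found for 129 of the 196 genes, and one above 4 for 28 (1.92% and 0.221% of all genes lay past these values). The distance from -N was larger after ammonium than after nitrate in 127 genes and larger after nitrate in 69.

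**Figure D1:**
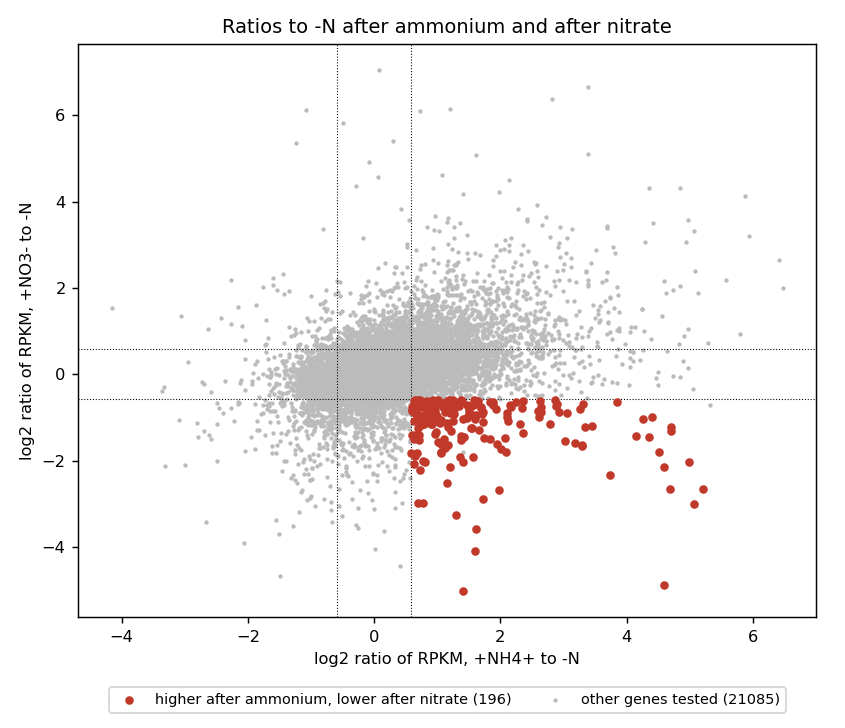
Each point is 1 gene, with its log2 ratio of RPKM after ammonium to -N on the horizontal axis and after nitrate to -N on the vertical axis, and the dotted lines mark 0.58 and -0.58. The 196 genes fill the lower right field in red, the 4 genes left out by name lie there among the grey points, and the red points reach 5.21 after ammonium and -5.02 after nitrate.

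The genes fell into unequal classes when each ratio was read at a log2 value of 1, which 9.53% of all genes exceeded upward after ammonium and 2.36% downward after nitrate. Both ratios were beyond 1 in 64 genes, with medians of 1.69 after ammonium and -1.55 after nitrate. The ammonium ratio alone was beyond 1 in 64 further genes, with medians of 1.60 and -0.75, and the nitrate ratio alone in 25 genes, with medians of 0.72 after ammonium and -1.40 after nitrate. In the other 43 genes neither was. Those 43 had a median of 6.78 RPKM in -N, against 1.38 RPKM for the 64 genes beyond 1 both ways.

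The level in -N was low for most of the 196 genes. Its median was 2.002 RPKM, against 11.1 RPKM over all genes tested. In -N, 68 of the 196 genes (34.7%) were under 1 RPKM, 94 (48%) between 1 and 10, 29 (14.8%) between 10 and 100, and 5 (2.55%) above 100, whereas 6.32% of all genes tested were under 1 RPKM 45.7% between 10 and 100, and 7.1% at or above 100. The 68 genes under 1 RPKM in -N passed the minimum through their ammonium value alone, so they had to be higher after ammonium, as were 66.7% of the 1346 tested genes at that level. After nitrate 105 of the 196 genes were under 1 RPKM, and ratios formed on such values carry an error that the table does not give. With at least 1 RPKM in -N, 128 genes remained, with medians of 1.14 after ammonium and -0.89 after nitrate. With at least 1 RPKM in all conditions, 91 remained.

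**Figure D2:**
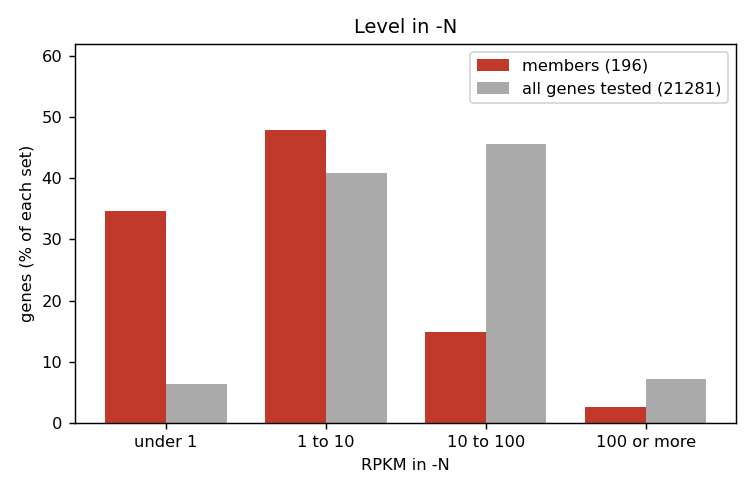
Bars give the percentage of the 196 genes (red) and of all 21281 genes tested (grey) in each class of RPKM in -N. The red bars exceed the grey ones under 1 RPKM (34.7% against 6.32%) and fall below them at 10 to 100 RPKM.

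The most abundant of the 196 genes after ammonium had mostly moderate ratios. Zm00001d028260 had 827.8 RPKM after ammonium, 332.6 after nitrate and 499.1 in -N, with log2 ratios of 0.73 and -0.59. Zm00001d049059 had 811.4 RPKM after ammonium, 178.7 after nitrate and 291.8 in -N, and its log2 ratios were 1.48 and -0.71. Zm00001d025401 had 433.7 RPKM after ammonium, 112.9 after nitrate and 249.6 in -N, and of these 3 genes it lay farthest below -N after nitrate (-1.14). Neither the deposited table nor the lists of the study gives a function for these identifiers.

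Among the 8 most abundant, the sizes of the ammonium and nitrate ratios were balanced differently from gene to gene. Zm00001d015133 had 154.1 RPKM after ammonium, 19.9 after nitrate and 93.0 in -N, with a nitrate ratio (-2.22) farther from 0 than its ammonium ratio (0.73). Zm00001d021119 had the opposite balance, with 156.3 RPKM after ammonium, 9.86 after nitrate and 15.7 in -N, and ratios of 3.31 and -0.67. Zm00001d042367 was balanced, at 236.5 RPKM after ammonium, 81.0 after nitrate and 134.8 in -N (0.81 and -0.73). At nearly the same ammonium level of 236.8 RPKM, Zm00001d051938 had 1.01 RPKM after nitrate and 6.403 in -N. It combined a high level with the largest ammonium ratio of the 196 genes (5.21, 37.0-fold) and a nitrate ratio of -2.66.

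**Figure D3:**
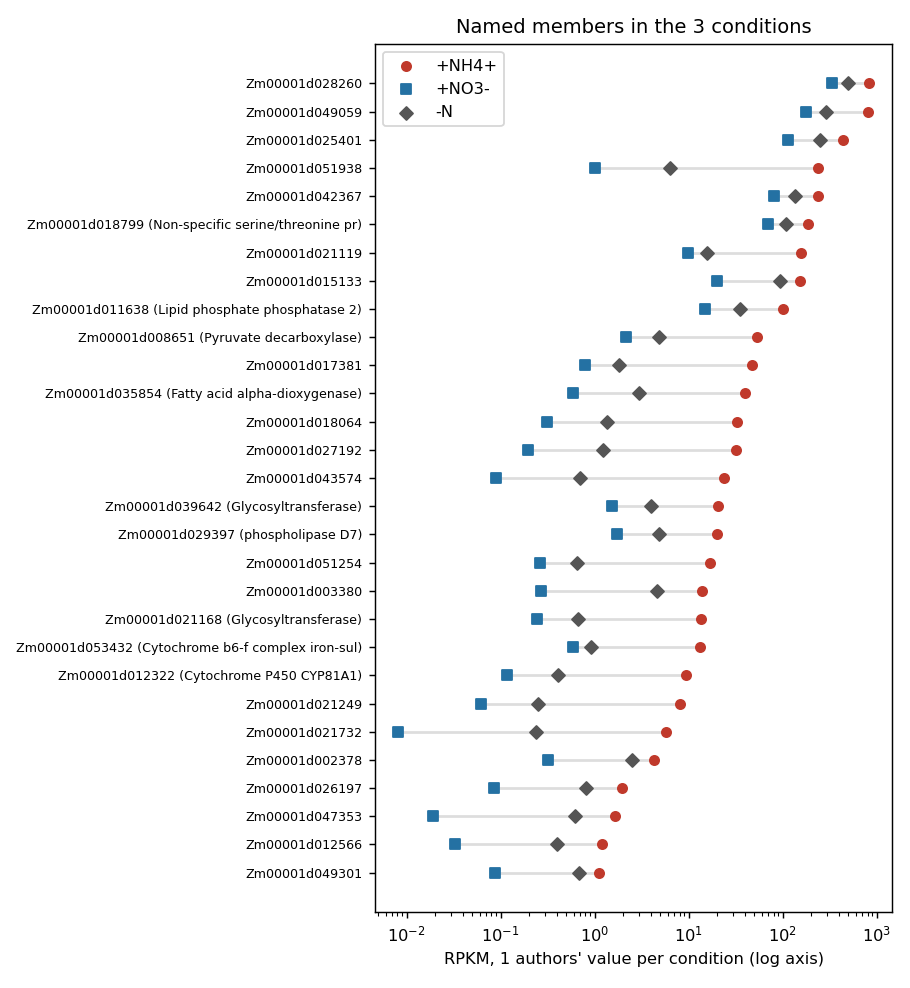
RPKM on a log axis after ammonium (red circles), after nitrate (blue squares) and in -N (grey diamonds) for the genes with a description and the 8 first genes by ammonium ratio, by nitrate ratio and by ammonium level, ordered by ammonium level. The grey diamond lies between the other marks in each row, as the rule requires, and it sits nearer to the blue square in Zm00001d021119 and nearer to the red circle in Zm00001d015133.

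The 8 genes with the highest ammonium ratios all had at most 6.403 RPKM in -N. After Zm00001d051938 came Zm00001d043574, with 23.6 RPKM after ammonium, 0.0889 after nitrate and 0.706 in -N (log2 ratios 5.06 and -2.99), and Zm00001d021249, with 8.01, 0.0622 and 0.252 RPKM in the same conditions (4.99 and -2.02). Zm00001d017381 reached 47.3 RPKM after ammonium, with 0.781 after nitrate and 1.82 in -N. Zm00001d027192 and Zm00001d018064 were much alike, at 31.8 and 32.7 RPKM after ammonium, 0.195 and 0.308 after nitrate, and 1.23 and 1.36 in -N. Zm00001d051254 had 16.8 RPKM after ammonium, 0.261 after nitrate and 0.645 in -N (4.70 and -1.30). Without ammonium, each of these genes after Zm00001d051938 was listed at 1.82 RPKM or less. With a pseudocount of 1 RPKM, 5 of the 8 still met both thresholds, and the nitrate ratio fell short in Zm00001d021249 (-0.24), Zm00001d051254 (-0.38) and Zm00001d021732 (-0.30).

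Zm00001d021732 belonged both to the 8 highest ammonium ratios and to the 8 lowest nitrate ratios. It had 5.82 RPKM after ammonium, 0.00818 after nitrate and 0.241 in -N, which gives the largest ratio of ammonium to nitrate among the 21281 genes (log2 ratio 9.47). Its nitrate value is also the lowest nitrate value among these genes, so the size of the ratio rests on an estimate close to 0. The lowest nitrate ratio was that of Zm00001d047353 (-5.02), with 1.65 RPKM after ammonium, 0.0191 after nitrate and 0.619 in -N. Zm00001d003380 lay at higher levels, with 13.9 RPKM after ammonium, 0.268 after nitrate and 4.58 in -N (1.60 and -4.09), and so did Zm00001d002378, with 4.27, 0.316 and 2.50 RPKM (0.77 and -2.98). The other low nitrate ratios, those of Zm00001d012566 (-3.58), Zm00001d026197 (-3.24) and Zm00001d049301 (-2.98), were formed on -N values of 0.395, 0.800 and 0.683 RPKM. With a pseudocount of 1 RPKM the nitrate ratio of Zm00001d047353 was -0.67, and Zm00001d012566 (nitrate ratio -0.43) and Zm00001d049301 (ammonium ratio 0.32) no longer met both thresholds. Of the 20 genes with the largest ratio of ammonium to nitrate among all genes tested, 18 were among the 196, and 12 of the 20 were under 1 RPKM in -N.

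For 9 of the 196 genes the lists of selected genes in the study give a description. Those lists hold 249 genes and were chosen by the study on these same libraries, so a direction found in them is no independent evidence. Of the 248 that passed the minimum, 200 were past the threshold upward after ammonium, 44 were downward after nitrate, and 9 (3.63%) are among the 196 genes. The 4 genes left out by name are also among these 248 and met both thresholds, but are not counted in the 9. The counts by kind of gene below are to be read beside these. With a pseudocount of 0.1 RPKM 8 of the 9 still met both thresholds, and with 1 RPKM 6 did. The 9 genes encode enzymes of fermentation, lipid metabolism, oxidation and glycosylation, a protein kinase and an electron carrier. The names are those of the lists, and the sequences were not examined.

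Pyruvate decarboxylase converts pyruvate to acetaldehyde, the entry into ethanol fermentation. Zm00001d008651, described as a pyruvate decarboxylase, had 53.3 RPKM after ammonium, 2.14 after nitrate and 4.90 in -N (log2 ratios 3.44 and -1.19). The lists hold 2 further pyruvate decarboxylase genes, both at much higher levels. Zm00001d028759 had 589.4 RPKM after ammonium, 230.4 after nitrate and 224.7 in -N, and Zm00001d010588 had 274.5, 105.1 and 73.7 RPKM. All 3 were past the threshold upward after ammonium, and of the 3 the one downward after nitrate was Zm00001d008651, whose relatives had nitrate ratios of 0.04 and 0.51.

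Of the keyword groups formed here from the descriptions, the one of lipid signalling and oxylipins held the most of the 196 genes. It held 3 of 7 listed genes, against 3.63% of all listed genes tested, with the genes left out by name not counted. The group is small, is not a category of the study and was formed with earlier results known, so no theme is read from the count. Phospholipase D releases phosphatidic acid, a membrane signal, from phospholipids, and the gene described as phospholipase D7, Zm00001d029397, had 20.2 RPKM after ammonium, 1.73 after nitrate and 4.81 in -N (2.07 and -1.48). Lipid phosphate phosphatases remove the phosphate from phosphatidic acid, and Zm00001d011638 (lipid phosphate phosphatase 2) had 101.7 RPKM after ammonium, 14.8 after nitrate and 34.9 in -N (1.54 and -1.24). An enzyme that makes and an enzyme that removes phosphatidic acid are both among the 196, as the rule chose both genes for this pattern. The fatty acid alpha-dioxygenase, which oxygenates fatty acids to oxylipins, showed it more steeply, as Zm00001d035854 had 39.6 RPKM after ammonium, 0.595 after nitrate and 2.97 in -N (3.74 and -2.32). The other 4 genes of this kind were also past the threshold upward after ammonium, but none was lower after nitrate. Lipoxygenase12 (Zm00001d041204), the first enzyme of another oxylipin branch, had 17.5 RPKM after ammonium, 20.01 after nitrate and 7.24 in -N. Zm00001d004706, the lipase-like PAD4, had 3.00 RPKM after ammonium, 3.91 after nitrate and 1.501 in -N.

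Cytochrome P450 enzymes oxidise a wide range of small molecules, and glycosyltransferases attach sugars to such molecules. Zm00001d012322 (cytochrome P450 CYP81A1) had 9.41 RPKM after ammonium, 0.117 after nitrate and 0.411 in -N (4.52 and -1.81), while the other P450 gene listed, Zm00001d038300, had 8.17 RPKM after ammonium, 5.01 after nitrate and 2.23 in -N. Of 5 listed glycosyltransferase genes, 2 were among the 196. Zm00001d021168 had 13.6 RPKM after ammonium, 0.242 after nitrate and 0.662 in -N (4.36 and -1.45), and Zm00001d039642 had 20.4, 1.54 and 3.98 RPKM (2.36 and -1.37). With a pseudocount of 1 RPKM the nitrate ratios were -0.34 for Zm00001d012322 and -0.42 for Zm00001d021168, inside the threshold, and -0.97 for Zm00001d039642. The other 3 glycosyltransferase genes were past the threshold upward after ammonium, with nitrate ratios of 0.29 (Zm00001d008795), 0.43 (Zm00001d043166) and 2.19 (Zm00001d044106).

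**Figure D4:**
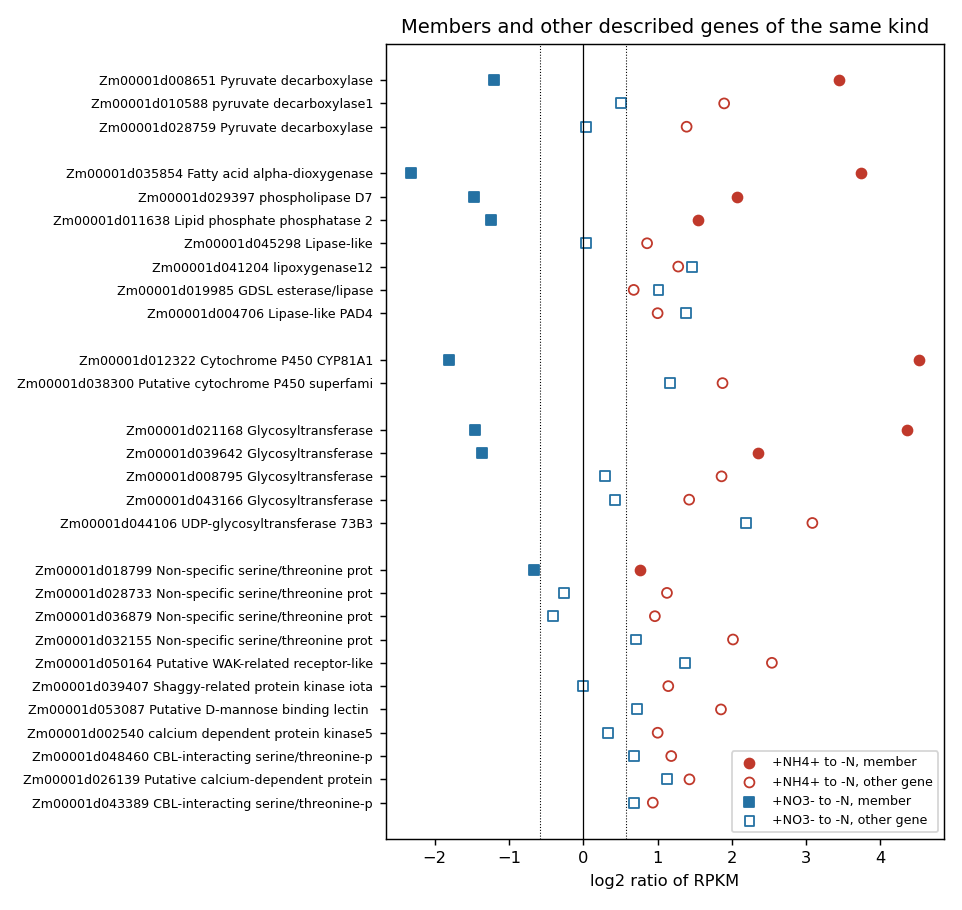
Log2 ratios to -N after ammonium (red circles) and after nitrate (blue squares) for listed genes of the same kind as a member, grouped from top to bottom as pyruvate decarboxylases, lipid enzymes, cytochrome P450s, glycosyltransferases and protein kinases, with filled marks for members. Red marks lie right of 0.58 in each row, and the blue marks left of -0.58 are the 8 filled ones, from Zm00001d035854 at -2.32 to Zm00001d018799 at -0.67.

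Of 11 genes described as protein kinases, all were past the threshold upward after ammonium, as were 200 of the 248 listed genes tested. After nitrate, 6 of the 11 were also upward and 1 was downward. This was Zm00001d018799, a serine/threonine kinase with 186.5 RPKM after ammonium, 69.0 after nitrate and 109.5 in -N, whose ratios of 0.77 and -0.67 lie near the thresholds. Zm00001d053432 is described as the iron-sulfur subunit of the cytochrome b6-f complex, a carrier of electrons in thylakoid membranes. This gene had 13.3 RPKM after ammonium, 0.592 after nitrate and 0.918 in -N (3.85 and -0.63). Its nitrate ratio was inside the threshold at -0.56 with a pseudocount of 0.1 RPKM and at -0.27 with 1 RPKM.

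Several other kinds of listed genes had no member, in groups small enough that, at 3.63% of the listed genes, a count of 0 sets none of them apart. Neither the 3.63% nor the counts of 0 include the genes left out by name. None of 24 transcription factor genes was among the 196, with 22 past the threshold upward after ammonium, 14 upward after nitrate and 0 downward after nitrate. All 8 glutathione transferase genes were upward after ammonium, and 4 of them were also upward after nitrate. The 6 genes of nitrate assimilation and hemoglobins were upward after ammonium, 5 of them after nitrate as well. Of 16 peroxidase genes, 3 were upward and 10 downward after ammonium, and 13 were downward after nitrate. One of them, Zm00001d010218, met both thresholds and was left out by name. Of 16 transporter genes, 9 were upward after ammonium and 8 downward after nitrate, and 3 of these met both thresholds and are among those left out by name. The 5 defence proteins, 4 dirigent proteins, 4 tubulins, 1 aquaporin and 2 cell proliferation genes also held no member.

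The 3 left-out transporters and the peroxidase had the following values. Zm00001d025831 had 19.4 RPKM after ammonium, 3.91 after nitrate and 8.72 in -N, and Zm00001d035115 had 129.6, 14.1 and 49.1 RPKM. Zm00001d037242 had 1.08 RPKM after ammonium, 0.144 after nitrate and 0.666 in -N, and Zm00001d010218 had 9.60, 0.146 and 0.240 RPKM.

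Some of the 196 genes carried close identifier numbers. With numbers at most 5 apart, 21 genes (10.7%) had another member beside them, in 10 runs, of which 9 held 2 genes and 1 held 3. The share to be found in any set of this size was not computed, so the 10.7% is not read as grouping. With a pseudocount of 1 RPKM the count was 4 among 83 members, and with at least 1 RPKM in all conditions 8 among 91. Positions on the chromosomes were not examined. The authors' multi-read correction shares reads out between similar genes, so that values of similar neighbours may not be independent. Zm00001d018105 and Zm00001d018106 were nearly equal, at 6.96 and 8.49 RPKM after ammonium, 0.571 and 0.708 after nitrate, and 1.14 and 1.13 in -N. Zm00001d002435 and Zm00001d002436 were also close, at 14.6 and 13.6 RPKM after ammonium, 2.67 and 2.72 after nitrate, and 5.22 and 6.90 in -N. So were Zm00001d026197 and Zm00001d026200 with ammonium and nitrate (1.98 and 1.92 RPKM, 0.0844 and 0.0804 RPKM), but not in -N (0.800 and 0.236 RPKM).

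In other runs the levels after ammonium were farther apart. The kinase gene Zm00001d018799, at 186.5 RPKM after ammonium, stood next to Zm00001d018800, which had 5.52 RPKM after ammonium, 1.91 after nitrate and 3.53 in -N. Zm00001d003186 had 63.6 RPKM after ammonium, 19.5 after nitrate and 31.2 in -N, and Zm00001d003185 had 17.7, 3.25 and 6.64 RPKM. In the run of 3, Zm00001d044159 reached 52.5 RPKM after ammonium, with 3.76 after nitrate and 6.86 in -N, while Zm00001d044156 and Zm00001d044162 had 4.55 and 1.03 RPKM after ammonium. Zm00001d021779 and Zm00001d021781 had 42.2 and 19.03 RPKM after ammonium, 2.76 and 2.53 after nitrate, and 6.10 and 4.24 in -N. The members of the remaining runs were Zm00001d011434 and Zm00001d011438, Zm00001d029696 and Zm00001d029699, and Zm00001d037023 and Zm00001d037024, with between 1.15 and 18.9 RPKM after ammonium.

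**Figure D5:**
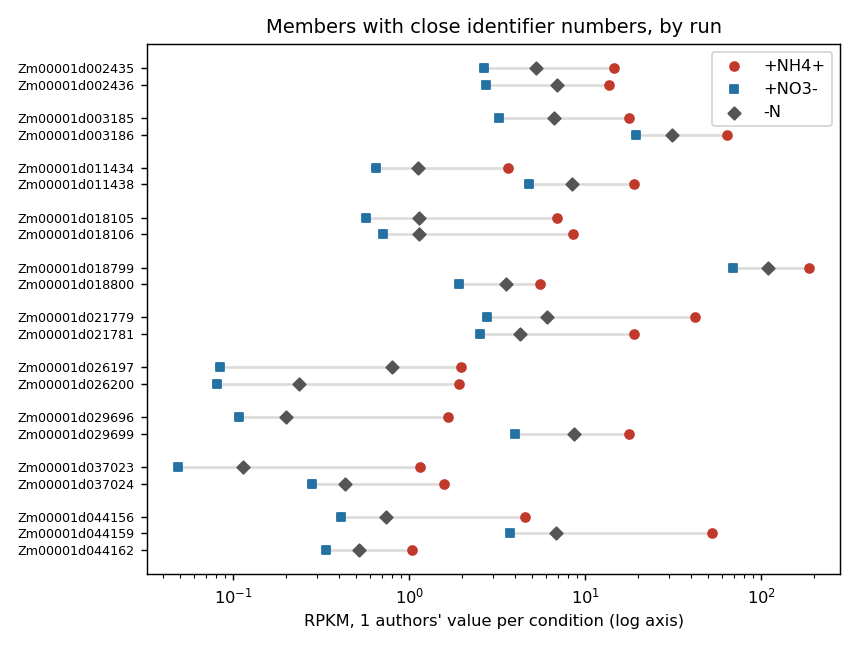
RPKM on a log axis after ammonium (red circles), after nitrate (blue squares) and in -N (grey diamonds) for the 21 members with identifier numbers at most 5 apart, with a gap between the 10 runs. Marks nearly coincide in Zm00001d018105 and Zm00001d018106, while Zm00001d018799 lies far to the right of Zm00001d018800.

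Genes with close numbers that were not members could not meet both thresholds, since the genes that did were set aside. There were 779 such genes within 5 numbers of a member, and 177 of them (22.7%) were past the threshold upward after ammonium and 41 (5.26%) downward after nitrate. The shares over all genes were 19.2% and 5.37%. As all genes include those that met both thresholds, the sets are not alike and nothing is read from the comparison. Their median log2 ratios were 0.10 after ammonium and 0.03 after nitrate.

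The thresholds divided a continuous range. The members nearest to the nitrate threshold were Zm00001d041608, Zm00001d028260 and Zm00001d009573, with nitrate ratios from -0.586 to -0.585, while Zm00001d052200, Zm00001d052008 and Zm00001d021632 stayed outside at -0.5795 to -0.571. At the ammonium threshold, Zm00001d034829, Zm00001d005437 and Zm00001d032570 were inside at 0.588 to 0.596, and Zm00001d034427, Zm00001d047893 and Zm00001d050266 outside at 0.574 to 0.575. Among these, Zm00001d047893 had 136.5 RPKM after ammonium, 17.4 after nitrate and 91.7 in -N, a nitrate ratio of -2.40 that is lower than that of most members.

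The opposite pattern, lower after ammonium and higher after nitrate, was found for 101 of the 21281 genes. Across all genes, 10.9% were past the threshold downward after ammonium and 11.5% upward after nitrate. For the 101 genes, as for the 196, the sizes below follow from the choice. Their median log2 ratios were -0.87 after ammonium and 0.91 after nitrate. Like the 196 genes they were low in -N, with a median of 1.21 RPKM. Those under 1 RPKM in -N passed the minimum through their nitrate value alone. The highest among them reached 50.5 RPKM after nitrate, whereas 13 of the 196 genes exceeded 100 RPKM after ammonium.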

How the data were processed

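Root apexes of maize B73 seedlings were sequenced in 9 libraries, 3 replicates for each of 3 conditions. The authors used Trimmomatic 0.33 for trimming and TopHat2 2.0.13 for mapping to B73 RefGen_v4 with the Gramene annotation. They removed alignments of the lowest mapping quality and estimated RPKM with Cuffdiff (Cufflinks 2.2.1), with multi-read correction and quartile normalization. The deposited RPKM values are 1 estimate for each gene in each condition, made over its replicates, normalized for length and, by quartiles, for library size. The values are relative, so a change in the RNAs that set this scale can move other values. The table gives neither depth nor spread, so no test was made from it. The authors' own Cuffdiff comparisons were not used. Log2 ratios to -N were formed without a pseudocount for Zm00001d genes above 0 in all 3 columns with a highest value of at least 1 RPKM, and read at 0.58. Descriptions were taken from the lists of selected genes in the study and matched by identifier. The RefSeq gene table used here pairs none of these identifiers, so no sequence or position was read, and the planned promoter motifs and the check on photosynthesis genes were not run.

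The members and the gene lists were chosen with earlier results of these data known. Genes named are members with a description, the 8 first by ammonium ratio, nitrate ratio and ammonium level, those with a member at most 5 identifier numbers away, and the 3 nearest on each side of a threshold. Other listed genes were named beside members of the same kind. Zm00001d018415, Zm00001d012166 and Zm00001d016119, from the same lists, were named as genes of dividing cells or the root cap. The code for the calling was run on simulated data, as a check of the code only. The error of the calls in the deposited values, many of them under 1 RPKM, was not tested. Alternatives were a pseudocount of 0.1 or 1, no minimum or 5 RPKM, 3 scalings and a log2 threshold of 1, with 1 RPKM in -N or in all columns and identifier distances of 1 and 10 added after seeing the data. Calculations used Python 3.11.15 with pandas 2.3.3 and numpy 2.4.6, scipy 1.17.1 for the range within which a median counted as unmoved in the alternatives, and matplotlib 3.10.9 for plots.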

Additional observations from a re-analysis of the deposited data

How the results depend on the processing

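The count of 196 genes was within 1.5 times under the 3 scalings (213 with medians set to 0, 201 with equal totals, 179 with equal upper quartiles, with 192, 180 and 178 of the 196 among them) and a pseudocount of 0.1 (171). It moved by more than 1.5 times under the other choices on low values and with a higher fold threshold. With a pseudocount of 1 it was 83, with 13 beyond 1 both ways, 757 genes lower after nitrate, 25 with the opposite pattern, 4 close in number, and medians of 1.05 after ammonium, -0.83 after nitrate and 6.69 RPKM in -N. Without a minimum these were 394, 136, 2304, 331 and 46, with 6254 genes higher after ammonium and medians of -1.07 after nitrate and 0.349 RPKM in -N. With 5 RPKM they were 110, 36, 622, 32 and 10, with 2658 higher after ammonium and 6.25 RPKM in -N. With a threshold of 1 there were 64 members, 503 genes lower after nitrate, 2028 higher after ammonium, 25 opposite and 2 close in number, with medians of 1.69 and -1.55.

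Added after seeing the data, at least 1 RPKM in -N gave 128 members, 37 beyond 1 both ways, 57 opposite, 12 close in number and a median of 5.05 RPKM in -N. At least 1 RPKM in all columns gave 91, 21, 36 and 8, with 761 genes lower after nitrate, 5 members with a description, and medians of 1.04, -0.85 and 6.96 RPKM. Identifier numbers at most 1 apart gave 10 members with a neighbour, and at most 10 apart 30. Of the 106 log2 ratios of the 53 named members, 24 fell inside the 0.58 threshold with a pseudocount of 1 RPKM, 8 with 0.1 RPKM, and 3, 4 and 4 with medians set to 0, equal totals and equal upper quartiles. No paired analysis was possible because the table holds 1 value per condition, and no replicate could be left out.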

Other observations

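The rule leaves out genes listed at 0. A further 12 Zm00001d genes were listed at 0 after nitrate, with an ammonium ratio above 0.58 and at least 1 RPKM after ammonium, and all 12 were under 1 RPKM in -N. The highest was Zm00001d021977, chosen after its values were seen, with 5.05 RPKM after ammonium, 0 after nitrate and 0.149 in -N. Of 327 identifiers other than Zm00001d that passed the same minimum, 4 met both thresholds. ENSRNA049470807, also chosen after its values were seen, had 57.6 RPKM after ammonium, 12.0 after nitrate and 25.0 in -N.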
